A study of Mus musculus with 79 samples.

Results

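Interferon-stimulated genes were followed in the RNA of mouse embryonic fibroblasts and of the suprachiasmatic nucleus (SCN), the circadian pacemaker of the hypothalamus. The 9 genes described are Isg15, Ifit1, Ifit3, Oasl2, Bst2, Ifi204, Irf7, Stat2 and Irf9, chosen by name with earlier results of these data known. All 9 were found, under those symbols, in each of the 6 deposited tables, among 23511 gene names in the knockout experiment, 20800 in the fibroblast drug experiment and 24346 in the SCN experiment. The study asks how adenosylhomocysteinase (AHCY), the enzyme that clears S-adenosylhomocysteine, bears on the circadian clock, and holds 79 libraries in 3 experiments. In the first, AHCY null fibroblasts made by CRISPR-Cas9 (KO) and wild-type fibroblasts (WT) were harvested every 4 h at circadian times CT12 to CT32, with 18 libraries per genotype and 3 per time. In the second, fibroblasts were given the AHCY inhibitor 3-deazaneplanocin A (DZnep) or its solvent DMSO and harvested at CT24 and CT12, with 6 libraries per treatment and 3 per time. All fibroblasts were embryonic, of C57BL/6J background, and had been synchronized by 100 nM dexamethasone for 1 h, a glucocorticoid pulse that KO, WT, DZnep and DMSO cells shared. In the third, C57BL/6 mice aged 10 weeks received DZnep or saline by infusion into the hypothalamus, and SCN punches were taken at CT3, CT9, CT15 and CT21, giving 16 DZnep and 15 saline libraries, with 4 per time and 3 for saline at CT21. The labels give neither the DZnep doses nor the number of KO clones, and a punch can hold tissue around the nucleus.

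Interferons bind receptors whose Janus kinases phosphorylate STAT proteins, among them STAT2, which acts with IRF9 in a complex that binds the interferon-stimulated response element (ISRE) in promoters. The genes so induced encode antiviral effectors and also STAT2, IRF9 and IRF7 themselves, which gives the pathway a positive loop. Many cells keep low levels of these mRNAs without infection, and in the brain microglia are among the cells that respond most.

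The promoters of 6 of the genes are shown because they differ in whether they hold the core of that element, although each gene is known as interferon-stimulated. Each window runs from 250 bases before to 50 after a RefSeq transcript start on GRCm38.p6, the same build as mm10, and reads along the strand of the gene. They lie at chr4:156200769-156201068 on the minus strand (Isg15), chr8:71537423-71537722 on the minus strand (Bst2), chr19:34640639-34640938 on the plus strand (Ifit1), chr19:34583279-34583578 on the plus strand (Ifit3), chr10:128270248-128270547 on the plus strand (Stat2) and chr5:114896684-114896983 on the plus strand (Oasl2). Capitals mark the ISRE core, searched on both strands as GAAA, any 2 bases and GAAA, and the gamma-activated site, searched as TTCNNNGAA, a pattern that reads alike on both strands.
Isg15: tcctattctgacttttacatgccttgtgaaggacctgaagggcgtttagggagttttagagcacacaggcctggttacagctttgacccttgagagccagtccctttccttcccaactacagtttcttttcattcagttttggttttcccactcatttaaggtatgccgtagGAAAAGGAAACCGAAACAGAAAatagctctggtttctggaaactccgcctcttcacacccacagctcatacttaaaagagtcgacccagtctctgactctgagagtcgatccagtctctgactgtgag
Bst2: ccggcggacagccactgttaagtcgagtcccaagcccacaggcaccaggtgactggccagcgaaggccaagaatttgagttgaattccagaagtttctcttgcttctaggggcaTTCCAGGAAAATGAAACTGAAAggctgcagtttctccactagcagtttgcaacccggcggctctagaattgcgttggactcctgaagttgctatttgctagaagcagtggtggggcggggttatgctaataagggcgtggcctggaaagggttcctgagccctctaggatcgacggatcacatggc
Ifit1: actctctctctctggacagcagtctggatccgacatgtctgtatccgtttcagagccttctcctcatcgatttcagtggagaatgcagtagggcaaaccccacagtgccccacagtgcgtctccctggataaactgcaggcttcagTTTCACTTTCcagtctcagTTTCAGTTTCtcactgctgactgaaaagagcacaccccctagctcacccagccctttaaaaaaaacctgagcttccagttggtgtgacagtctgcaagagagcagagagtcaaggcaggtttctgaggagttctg
Ifit3: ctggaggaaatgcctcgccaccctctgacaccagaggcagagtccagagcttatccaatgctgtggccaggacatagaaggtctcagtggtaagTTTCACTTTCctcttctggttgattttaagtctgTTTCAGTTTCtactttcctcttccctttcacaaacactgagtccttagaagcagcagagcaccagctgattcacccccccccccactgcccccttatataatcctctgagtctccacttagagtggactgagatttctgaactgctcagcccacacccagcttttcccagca
Stat2: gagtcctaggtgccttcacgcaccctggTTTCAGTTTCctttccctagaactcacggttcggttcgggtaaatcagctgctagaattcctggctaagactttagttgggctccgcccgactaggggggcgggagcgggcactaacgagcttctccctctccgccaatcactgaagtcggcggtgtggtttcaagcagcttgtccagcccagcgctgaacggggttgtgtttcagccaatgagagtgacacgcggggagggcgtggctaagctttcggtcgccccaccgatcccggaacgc
Oasl2: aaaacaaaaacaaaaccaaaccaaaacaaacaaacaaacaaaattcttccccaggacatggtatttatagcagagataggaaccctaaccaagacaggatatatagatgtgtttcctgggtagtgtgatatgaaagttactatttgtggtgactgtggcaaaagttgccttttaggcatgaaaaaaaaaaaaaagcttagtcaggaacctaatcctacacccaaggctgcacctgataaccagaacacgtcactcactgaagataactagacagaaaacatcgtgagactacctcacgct

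The ISRE core was found in 5 of the 8 genes with a RefSeq window, against 3.99% of all 27025 genes with such windows (3.44% of 32851 windows). Isg15 holds 3 overlapping matches on the gene's strand and Bst2 holds 2. Ifit1 and Ifit3 each hold 2 separate matches on the opposite strand, with the same letters in the same order. Stat2 holds 1, in a window that lies wholly upstream of the GENCODE gene start. No match lies in the windows of Irf7, Irf9 or Oasl2. On the same build, Irf7 spans chr7:141262706-141266481 on the minus strand, Irf9 chr14:55603571-55610030 on the plus strand and Ifi204, for which no window was used, chr1:173747293-173766943 on the minus strand. The gamma-activated site was found in Bst2 alone, where it overlaps the ISRE run, against 9.55% of all genes (8.3% of windows). A match is a description of these letters, not a shown site or a cause, and no match says only that the letters are not in that window.

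The library checks that bear on these genes were as follows. Ahcy itself averaged 3.16 ± 0.672 TPM in KO cells and 176 ± 24.7 TPM in WT cells (SD, n = 18 each), with no overlap between a highest KO value of 4.74 TPM and a lowest WT value of 131 TPM. The KO and WT values were read as TPM (transcript abundance scaled by length and library size), a unit inferred from library sums of 970075 to 980677, and the other tables as FPKM (fragments scaled by transcript length and library size). Read depth is unknown. The labels call the replicates of a group biological. All 7 fibroblast markers stood at 1 or more in the fibroblasts, and all 8 SCN neuron markers did so in the SCN, each experiment taken as a whole. Single libraries can lie lower, as Prok2 did in the SCN (lowest value 0.0238 FPKM). Among libraries, 3 KO, 3 WT and 1 DMSO library held over 2 times the median Malat1 of their arm. In the SCN, the saline library CT9 replicate 2 stood apart: it had the highest value of all 9 genes among 31 libraries, so SCN results are given with and without it. The decimals of the SCN values resemble averages over 4 numbers (55% end in 25 or 75, against 2.22% of fibroblast values). It is thus uncertain whether an SCN value is a single measurement, and what spread its SD covers.

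In KO fibroblasts 5 of the 6 antiviral effector genes among the 9 stood far above WT, Ifit3 being the exception, while the factors that transmit the interferon signal went both ways. Isg15 encodes a ubiquitin-like protein that is joined to other proteins after interferon. Over the 18 KO libraries it had a lowest value of 32.4, a median of 36 and a highest value of 40.8 TPM, and over the 18 WT libraries a lowest value of 0.655, a median of 1.65 and a highest value of 2.49 TPM. The lowest KO library thus lay far above the highest WT library. Mean levels were 35.9 ± 2.29 TPM in KO and 1.66 ± 0.445 TPM in WT (SD over all times, n = 18 each), a ratio of 21.6. On the scale of log2(TPM + 1), which understates the change of low genes, the difference was 3.64 (SE 0.061, adjusted p = 2.0e-28, limma).

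Oasl2, an oligoadenylate synthetase-like antiviral protein of the mouse, had a lowest value of 3.49, a median of 4.20 and a highest value of 5.10 TPM in KO. In WT it had a lowest value of 0.101, a median of 0.245 and a highest value of 0.462 TPM, so the groups did not overlap. No WT library reached the filter value of 1 TPM, so Oasl2 was admitted to the test through KO alone. The ratio of means was 16.6 and the log2 difference 1.95 (SE 0.027, limma adjusted p = 1.3e-30). Ifi204 belongs to the p200 family, whose proteins bind nucleic acids. It had a lowest value of 25.2, a median of 29.6 and a highest value of 33.2 TPM in KO, and a lowest value of 1.58, a median of 2.41 and a highest value of 3.45 TPM in WT. Its groups were apart by a ratio of means of 11.5, with a log2 difference of 2.93 (SE 0.038, limma adjusted p = 5.1e-31). Ifi204 has close relatives in the genome, among which the authors' quantification may have split reads.

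Bst2, or tetherin, a membrane protein that holds budding viruses on the cell, was the most abundant of the 9 in KO cells. It had a lowest value of 67.8, a median of 77.2 and a highest value of 89.1 TPM in KO, and a lowest value of 10.1, a median of 15.1 and a highest value of 23.3 TPM in WT. Its ranges did not overlap, and the log2 difference was 2.09 (SE 0.029, limma adjusted p = 1.9e-30). Ifit1 encodes a protein that binds viral RNA lacking the cap marks of host mRNA. It had a lowest value of 4.38, a median of 5.53 and a highest value of 7.02 TPM in KO, and a lowest value of 0.847, a median of 1.62 and a highest value of 2.07 TPM in WT. The groups were again apart, with a log2 difference of 1.27 (SE 0.050, limma adjusted p = 2.2e-19).

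Ifit3, whose human counterpart binds IFIT1, did not follow its neighbour on chromosome 19. It had a lowest value of 2.21, a median of 3.64 and a highest value of 5.80 TPM in KO, and a lowest value of 1.38, a median of 3.41 and a highest value of 4.73 TPM in WT. The groups overlapped over most of their range, and the log2 difference was 0.01 (95% interval -0.08 to 0.09, limma adjusted p = 0.877). This call depends on the scaling: the difference was 0.17 (limma adjusted p = 0.000388) with values as deposited and 0.30 (limma adjusted p = 2.6e-07) with quantile normalization. The median log2 difference of all genes moved with it, from -0.045 in the rescaled values to 0.148 as deposited and 0.053 with quantile normalization. Reads of Ifit1 and Ifit3 may be shared with near copies in the same cluster, so both are uncertain to that degree.

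The signalling factors split. Irf9, the DNA-binding part of the STAT complex, had a lowest value of 23.1, a median of 26.7 and a highest value of 28.8 TPM in KO, and a lowest value of 7.60, a median of 9.57 and a highest value of 12.3 TPM in WT. Its groups did not overlap, and the log2 difference was 1.18 (SE 0.029, limma adjusted p = 1.3e-24). Its partner Stat2 was lower in KO, with a lowest value of 10.5, a median of 13.2 and a highest value of 18.0 TPM in KO and a lowest value of 12.2, a median of 21.6 and a highest value of 35.0 TPM in WT. Its pooled ranges overlapped, the WT libraries of CT12 being the lowest in WT, and the log2 difference was -0.83 (SE 0.023, limma adjusted p = 3.3e-23). Irf7, the regulatory factor that amplifies interferon production, was also lower, with a lowest value of 0.448, a median of 0.659 and a highest value of 1.12 TPM in KO and a lowest value of 0.668, a median of 1.39 and a highest value of 2.97 TPM in WT. Its groups overlapped too, at levels near 1 TPM that passed the filter through WT (1 KO library and 16 WT libraries at 1 TPM or more), and the log2 difference was -0.69 (SE 0.054, limma adjusted p = 1.7e-12). Irf9 shares 123 bases with Rnf31 on the same strand and Irf7 shares 45 bases with Phrf1 on the opposite strand in GENCODE vM21, and the counting strand is not given in the sources used here.

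**Figure D1:**
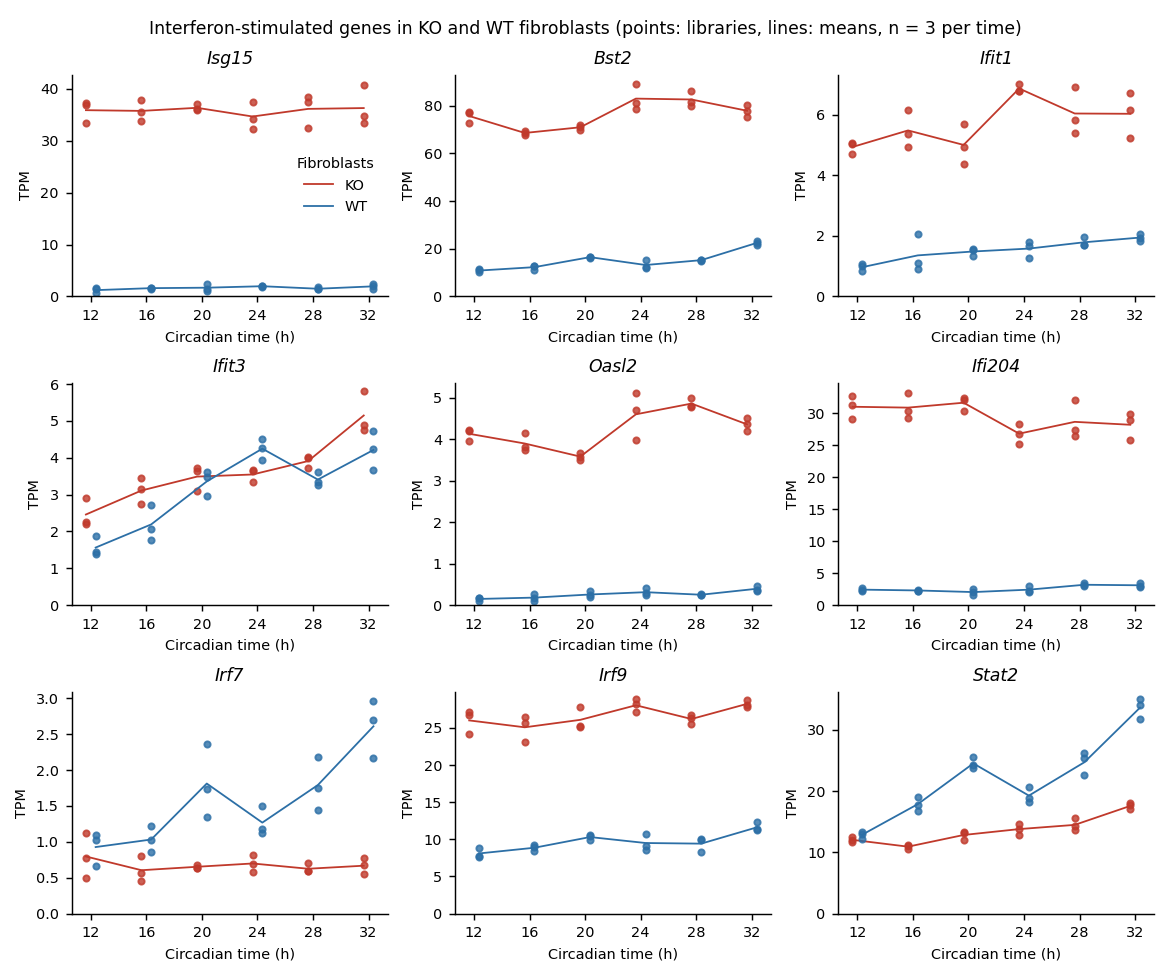
TPM (y axis, from 0) of the 9 genes at 6 circadian times in hours (x axis) in KO (red) and WT (blue) fibroblasts; points are libraries, 3 per group, and lines join the group means. Isg15, Bst2, Ifit1, Oasl2, Ifi204 and Irf9 lie higher in KO at every time, while Irf7 and Stat2 climb over time mainly in WT. Ifit3 lies close in both. In these values as deposited it is higher in KO at 4 times, overlapping at CT20 and lower at CT24, sides that depend on the scaling.

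In all, 6 of the 9 genes were called higher and 2 lower in KO, at an adjusted p under 0.05 over 13603 genes. The background was high: 89.6% of all genes tested were called, 42.6% higher and 47% lower, so the share called does not set these genes apart. Their median log2 difference was 1.27, against -0.045 for all genes tested. The 9 were chosen with earlier results known, and the median over 47 further interferon-stimulated genes was 0.15. The ranges of the 18 KO and 18 WT libraries were apart for 6 of the 9, against 48.5% of all genes. Oasl2 and Irf7, which passed the filter through the genotype where they were high, add nothing to these counts; of the other 7 genes, 5 were called higher and 1, Stat2, lower. The direction of the 8 called genes held under each scaling tried. In each experiment the arms were deposited as separate tables, so arm and table cannot be told apart.

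Markers of other cells were summed in each library. The summed microglia and macrophage markers ranged from 96.4 to 117 TPM in KO and from 110 to 214 TPM in WT, with 3 of 12 markers at 1 TPM or more. The summed leukocyte markers ranged from 3.60 to 9.00 TPM in KO and from 3.21 to 9.16 TPM in WT, with 2 of 12 markers at 1 TPM or more. Ptprc, the pan-leukocyte gene CD45, averaged 0.0698 TPM in KO and 0.00327 TPM in WT, and C1qa was listed at 0 in all KO libraries. Both are low members of their lists, in which other markers reached 1 TPM. The part of such cells in the differences was not tested beyond these levels, and in bulk RNA fewer cells of a type and less RNA per cell cannot be told apart.

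Over the 6 times the genotypes differed in their time course for 6 of the 9 genes (52.2% of all genes), most plainly Stat2 and Bst2, which climbed further in WT. Irf7, which passed the filter through WT, climbed further there too. Stat2 in KO averaged 12.0 TPM at CT12, 10.9 at CT16, 12.8 at CT20, 13.8 at CT24, 14.5 at CT28 and 17.6 at CT32. In WT it averaged 12.9 ± 0.609 TPM at CT12, 17.9 ± 1.12 at CT16, 24.5 ± 0.934 at CT20, 19.3 ± 1.23 at CT24, 24.7 ± 1.86 at CT28 and 33.6 ± 1.63 at CT32 (SD, n = 3 per time). The KO libraries held 12.0, 12.5 and 11.7 TPM of Stat2 at CT12, when the WT libraries held 13.4, 12.2 and 13.1 TPM. By CT32 they held 18.0, 17.7 and 17.1 TPM, against 35.0, 31.9 and 34.0 TPM in WT. As deposited, the genotypes thus nearly met at CT12 and were far apart at CT32. The test used values divided by size factors, 1.07 to 1.09 in KO and 0.899 to 0.912 in WT at CT12. On that scale the KO libraries lay below the WT libraries at CT12 too. The difference varied among times (largest gap between times 0.78 on the log2 scale, limma F test, adjusted p = 2.1e-08).

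Irf7 had a like course at a lower level. In KO it averaged 0.795 ± 0.313 TPM at CT12 and 0.667 ± 0.110 at CT32, where change among times was not called (limma F test, adjusted p = 0.944), and in WT 0.927 ± 0.227 TPM at CT12 and 2.61 ± 0.411 at CT32 (SD, n = 3). The genotype difference varied among times for Irf7 (adjusted p = 0.000662, limma F test). All but 1 of the 18 KO values lay under 1 TPM, where log2(TPM + 1) understates change. Ifit3 changed sides. At CT12 the KO libraries held 2.26, 2.90 and 2.21 TPM and the WT libraries 1.38, 1.44 and 1.86 TPM, so KO lay higher. At CT24 the KO libraries held 3.64, 3.66 and 3.33 TPM and the WT libraries 3.94, 4.28 and 4.52 TPM, so KO lay lower. KO was also higher at CT16 (2.73 to 3.44 TPM in KO, 1.77 to 2.73 TPM in WT), CT28 (3.71 to 4.01 TPM in KO, 3.26 to 3.62 TPM in WT) and CT32 (4.75 to 5.80 TPM in KO, 3.68 to 4.73 TPM in WT), by margins that were thin at CT16 and CT32, and the ranges overlapped at CT20. The rescaling before the test lowered KO and raised WT values (size factors at CT28 of 1.06 to 1.10 in KO and 0.924 to 0.929 in WT). On that scale the ranges at CT16, CT28 and CT32 overlap. No share of all genes is given for ranges at single times. Ifit3 was lowest at CT12 in both genotypes, and the test of the difference gave an adjusted p of 0.00461 (limma F test).

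Bst2 averaged 75.7 ± 2.59 TPM at CT12 and 77.9 ± 2.53 at CT32 in KO, and 10.9 ± 0.740 TPM at CT12 and 22.5 ± 0.802 at CT32 in WT (SD, n = 3). Ifi204 averaged 31 ± 1.85 TPM at CT12 and 28.2 ± 2.2 at CT32 in KO, and 2.41 ± 0.255 and 3.09 ± 0.335 TPM at these times in WT. Oasl2 averaged 4.13 ± 0.143 TPM at CT12 and 4.35 ± 0.156 at CT32 in KO, and 0.146 ± 0.0390 and 0.391 ± 0.0619 TPM in WT. For all 3 the genotype gap on the log2 scale was wider at CT12 than at CT32, and it varied among times (limma F test, adjusted p = 1.1e-07 for Bst2, 0.000519 for Ifi204 and 0.0147 for Oasl2). Isg15 in KO averaged between 34.7 and 36.3 TPM at the 6 times, a change of 0.10 on the log2 scale at most.

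By counts, 8 of the 9 genes changed among times in WT (69.5% of all genes), Isg15 being the exception (limma F test, adjusted p = 0.102), and Oasl2 at WT levels all below the filter value. In KO, 4 did (42.7% of all genes): Bst2, Ifit3, Oasl2 and Stat2. The 6 whose course differed between genotypes were Stat2, Bst2, Ifi204, Irf7, Ifit3 and Oasl2. Irf7 and Oasl2 passed the filter through the genotype where they were high, so they add nothing to these counts. Each share is of the order of the background, and 6 times over 20 h with 1 cycle at most cannot tell a rhythm from a drift. Fitted with a 24 h sine and cosine instead, 5 of the 9 changed in WT, 1 in KO and 1 differed between genotypes. Isg15 in WT was called without WT CT12 replicate 2, CT20 replicate 2 or 3, or CT32 replicate 3 (limma adjusted p = 0.0363, 0.0405, 0.0311 and 0.0380). Irf9, whose course was not called as different (limma F test, adjusted p = 0.0542), was called without any 1 of 9 libraries: WT CT12 replicate 3, CT24 replicates 1 and 2 and CT28 replicates 1 and 2, and KO CT12 replicate 2, CT16 replicate 1, CT20 replicate 3 and CT24 replicate 1 (lowest adjusted p = 0.0162). Ifit1 was called for change in KO without WT CT16 replicate 1 or 2 (limma adjusted p = 0.0439 and 0.00830), and for the difference without the second of them (0.0124). Oasl2 lost its call for the difference (limma F test, adjusted p = 0.0697) without the CT20 libraries, where WT libraries hold up to 309 TPM of summed skeletal muscle markers.

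In fibroblasts given DZnep, Ifit3, Ifit1 and Isg15 were higher than in DMSO, while Bst2, Irf7 and Stat2 were lower. Ifit3 moved most. The DZnep libraries held 10.3, 10.2 and 10.9 FPKM at CT24 and 2.83, 3.34 and 4.13 FPKM at CT12, and the DMSO libraries 2.78, 2.81 and 2.74 FPKM at CT24 and 1.34, 1.27 and 1.12 FPKM at CT12. Every DZnep library thus exceeded every DMSO library. Averaged over both times the log2 difference was 1.25 (SE 0.064, limma adjusted p = 2.1e-08). It was larger at CT24 (1.56) than at CT12 (0.93), and this difference of 0.63 (SE 0.13) had an adjusted p of 0.0165 (limma), the one such call among the 8 genes tested (6.11% of all genes, 3.2% in this direction). That call was lost without DMSO CT12 replicate 1 or without DZnep CT24 replicate 3 (limma adjusted p = 0.0529 and 0.0534).

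Ifit1, the neighbour of Ifit3, held 2.35, 2.68 and 2.42 FPKM at CT24 and 1.43, 1.29 and 1.93 FPKM at CT12 with DZnep, against 0.923, 1.18 and 0.887 FPKM at CT24 and 0.543, 0.793 and 0.879 FPKM at CT12 with DMSO. Isg15 held 1.90, 2.23 and 2.08 FPKM at CT24 and 1.36, 1.53 and 1.60 FPKM at CT12 with DZnep, against 0.779, 0.624 and 1.02 FPKM at CT24 and 0.830, 0.820 and 0.883 FPKM at CT12 with DMSO. For both genes all DZnep libraries lay above all DMSO libraries. The log2 differences were 0.65 for Ifit1 (SE 0.077, limma adjusted p = 1.7e-05) and 0.57 for Isg15 (SE 0.058, limma adjusted p = 4.5e-06).

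Bst2 went the other way. It held 8.81, 9.86 and 10.8 FPKM at CT24 and 4.80, 6.40 and 7.18 FPKM at CT12 with DZnep, against 14.7, 16.1 and 18.3 FPKM at CT24 and 12.5, 13.5 and 12.1 FPKM at CT12 with DMSO. Its ranges were apart, and it was lower with DZnep by a log2 difference of -0.86 (SE 0.080, limma adjusted p = 2.0e-06). Irf7 averaged 0.786 ± 0.230 FPKM with DZnep and 1.33 ± 0.57 FPKM with DMSO (SD over both times, n = 6), and Stat2 9.13 ± 1.16 and 11.1 ± 2.61 FPKM. Both overlapped between treatments when the times were pooled and had log2 differences of -0.39 for Irf7 (SE 0.066, limma adjusted p = 0.000277) and -0.28 for Stat2 (SE 0.057, limma adjusted p = 0.00103). Within each time neither overlapped, at 3 libraries per treatment and with no share of all genes to set this against. Irf7 held 0.847, 0.978 and 1.10 FPKM with DZnep and 2.09, 1.61 and 1.78 FPKM with DMSO at CT24, and 0.480, 0.648 and 0.667 FPKM with DZnep and 0.946, 0.672 and 0.910 FPKM with DMSO at CT12, where the ranges nearly touched. Stat2 held 10.4, 9.91 and 10.1 FPKM with DZnep and 12.8, 14.7 and 12.5 FPKM with DMSO at CT24. At CT12 Stat2 held 7.75, 8.27 and 8.27 FPKM with DZnep and 8.42, 8.40 and 9.62 FPKM with DMSO.

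Irf9 averaged 4.48 ± 0.410 FPKM with DZnep and 3.95 ± 0.414 FPKM with DMSO, a log2 difference of 0.10 (95% interval -0.02 to 0.23, limma adjusted p = 0.170). Ifi204 averaged 2.16 ± 0.301 and 2.06 ± 0.334 FPKM, a log2 difference of 0.01 (95% interval -0.15 to 0.16, limma adjusted p = 0.933). Oasl2, at 0.292 ± 0.135 FPKM with DZnep and 0.274 ± 0.108 FPKM with DMSO, lay below the filter on low values and was not tested.

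**Figure D2:**
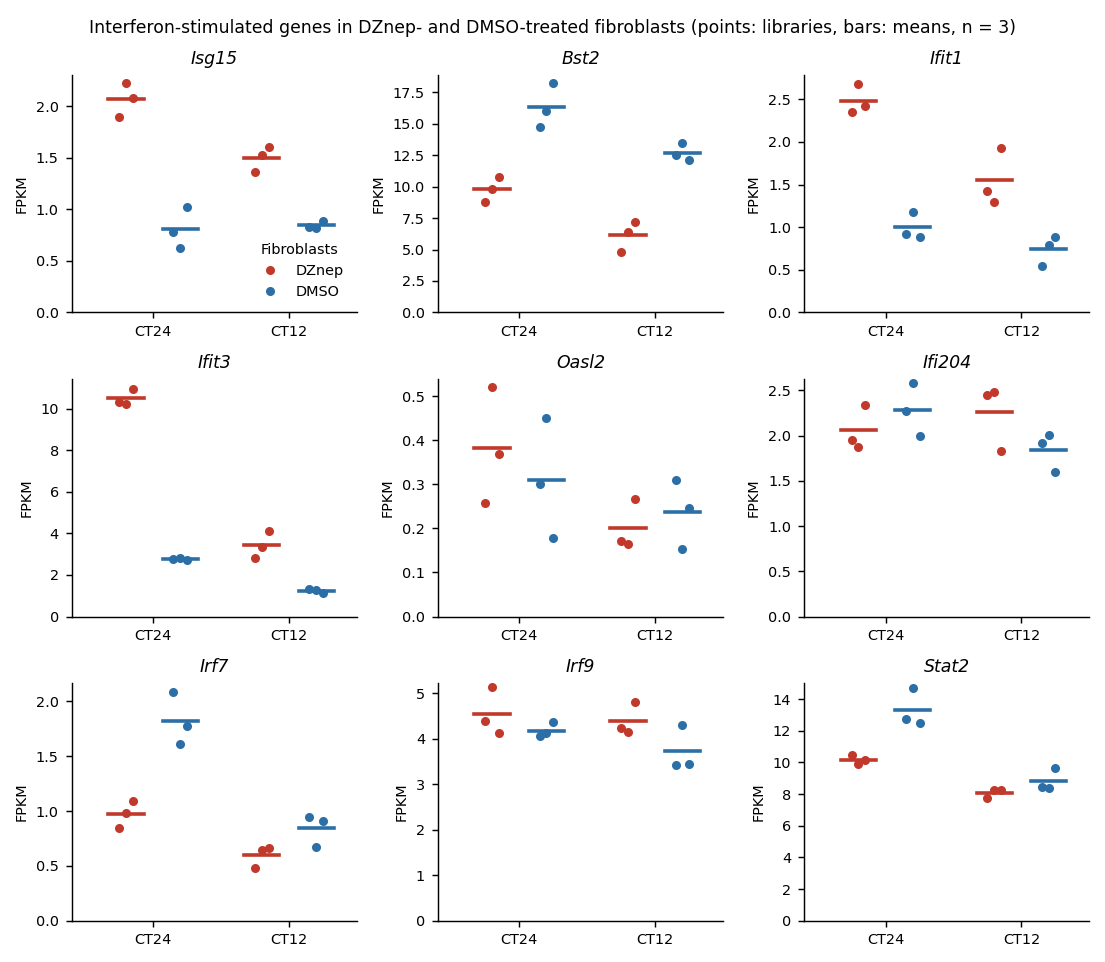
FPKM (y axis, from 0) of the 9 genes in fibroblasts given DZnep (red) or DMSO (blue), at CT24 on the left and CT12 on the right; points are libraries and bars are means of 3. Ifit3, Ifit1 and Isg15 lie higher and Bst2 lower with DZnep at both times, while Oasl2, Ifi204 and Irf9 overlap.

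Of 8 genes tested, 3 were called higher and 3 lower with DZnep, against 65.9% of all 10896 genes (33.1% higher and 32.7% lower). Their median log2 difference was 0.055, against 0.006 for all genes. The ranges of the 6 DZnep and 6 DMSO libraries were apart for 4 of the 9, against 30.1% of genes. Ifit1 and Isg15 passed the filter through DZnep and Irf7 through DMSO, so they add nothing to these counts; of the other 5 genes, Ifit3 was called higher and Bst2 and Stat2 lower. At CT24 alone 3 were higher and 3 lower (56.6% of all genes called, 27.9% higher and 28.7% lower). At CT12 alone 3 were higher and 1, Bst2, was lower (51.6% called, 25.7% higher and 25.8% lower). Ifit1 and Isg15 are among the higher genes at both times and Irf7 among the lower at CT24, and they add nothing there either. Without DMSO CT12 replicate 2, Irf7 (limma adjusted p = 0.0371) and Irf9 (0.0450) were called at CT12 too. At CT24 relative to CT12, 6 genes were higher with DZnep (37.2% of all genes called, 19.4% higher) and 4 with DMSO (50.7% called, 26.8% higher): Ifit3, Irf7, Stat2 and Bst2 in both, Ifit1 and Isg15 with DZnep. Whether Ifit1 and Isg15 differ in this was tested by the difference of the effects, which was not called for either (adjusted p = 0.384 and 0.115, limma), though it was for Isg15 without DMSO CT24 replicate 3 (0.0237). Within DMSO, Ifi204 and Ifit1 were called without DMSO CT24 replicate 3 and Irf9 without DMSO CT12 replicate 2, and within DZnep Irf7 lost its call without DZnep CT12 replicate 1 or CT24 replicate 3 (limma adjusted p = 0.0577 and 0.0591). Ifi204 within DMSO was also called without DZnep CT12 replicate 3 (0.0401). Microglia and macrophage markers summed to between 52.3 and 76.0 FPKM with DZnep and between 73.7 and 99.6 FPKM with DMSO, and no leukocyte marker reached 1 FPKM, with Cd3e and Gzmb listed at 0 throughout.

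Both fibroblast experiments can be read side by side, though they share neither controls nor unit. Isg15 and Ifit1 were higher and Stat2 and Irf7 lower in KO against WT and also in DZnep against DMSO. In the drug experiment Isg15, Ifit1 and Irf7 passed the filter through the treatment where they were high, and Irf7 passed through WT in the other. Of these genes, only Stat2 was thus tested free of that limit. Bst2 was higher in KO (log2 2.09) and lower with DZnep (-0.86). Ifi204 and Irf9 were called higher in KO and were not called with DZnep, and Ifit3 was called higher with DZnep and not in KO. No test of the difference between experiments was made, since each was normalized and deposited apart.

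In the SCN, none of the 9 genes was called between DZnep and saline over 31 libraries, and 1 saline library set much of the spread. Saline CT9 replicate 2 held 13.3 FPKM of Ifit1, 59.4 of Ifit3, 16.7 of Isg15, 30.8 of Bst2, 15.2 of Ifi204, 26.2 of Irf7, 21.1 of Irf9, 11.2 of Stat2 and 37.2 of Oasl2. These were at least 2 times the next library for 8 of the genes, Ifit3 being 1.80 times the next. Saline CT15 replicate 4 was second for 8 of the 9, with 33.0 FPKM of Ifit3, 13.7 of Oasl2 and 7.24 of Bst2. Of all 13312 genes tested, 18.2% were highest in saline CT9 replicate 2 and 2.79% were at least 2 times the next library.

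Other genes of the response and of immune cells moved with that library. The guanylate-binding protein gene Gbp2 stood at 113 FPKM there, against at most 10.8 in the other 30 libraries, and the chemokine genes Ccl5 at 162 against at most 3.32 and Cxcl10 at 36.1 against at most 1.44. Microglia and macrophage markers summed to 887 FPKM there and to between 83.3 and 165 FPKM in the others, and 12 of the 13 markers were highest there. Leukocyte markers summed to 52.7 FPKM there and to between 0.657 and 2.41 FPKM in the others, 10 of 12 being highest there, with Ptprc at 15.9 and Cd3e at 4.09 FPKM. Ifng, the type II interferon gene, was listed at 0.912 FPKM there and at 0.169 FPKM at most elsewhere, and Ifnb1 at 0 in all 31 libraries. Summed markers of fibroblasts (323 FPKM, against at most 163 in the others) and astrocytes (656 against at most 636) were highest there too. So were those of endothelium (22.1 against at most 20.9) and dendritic cells (11.1 against at most 8.49). Of single markers, 3 of 7 for fibroblasts, 1 of 3 for astrocytes, 1 of 4 for endothelium and 2 of 4 for dendritic cells were highest there. Vim held 251 FPKM of the fibroblast sum, while Col1a1 (2.99) and Col1a2 (6.71) lay below the others' medians (3.95 and 8.22). Neutrophil markers (1.65 FPKM, 0 to 10.2 in the others) and meningeal fibroblast markers (23.1, 10.3 to 53.8) summed to values within range. SCN neuron markers summed to 319 FPKM there, within the range of 218 to 636 FPKM of the others. Of these 8 markers, the transcription factor genes Six6 (12.0 FPKM, against 13.5 or more) and Lhx1 (8.26 FPKM, against 8.61 or more) were lowest there. The rest lay within the range of the other libraries, among them Rorb (21.7 FPKM, 17.4 to 37.2 elsewhere) and Avp (166 FPKM, 41.4 to 369 elsewhere). The part of these cells in the values of the 9 genes was not tested.

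**Figure D3:**
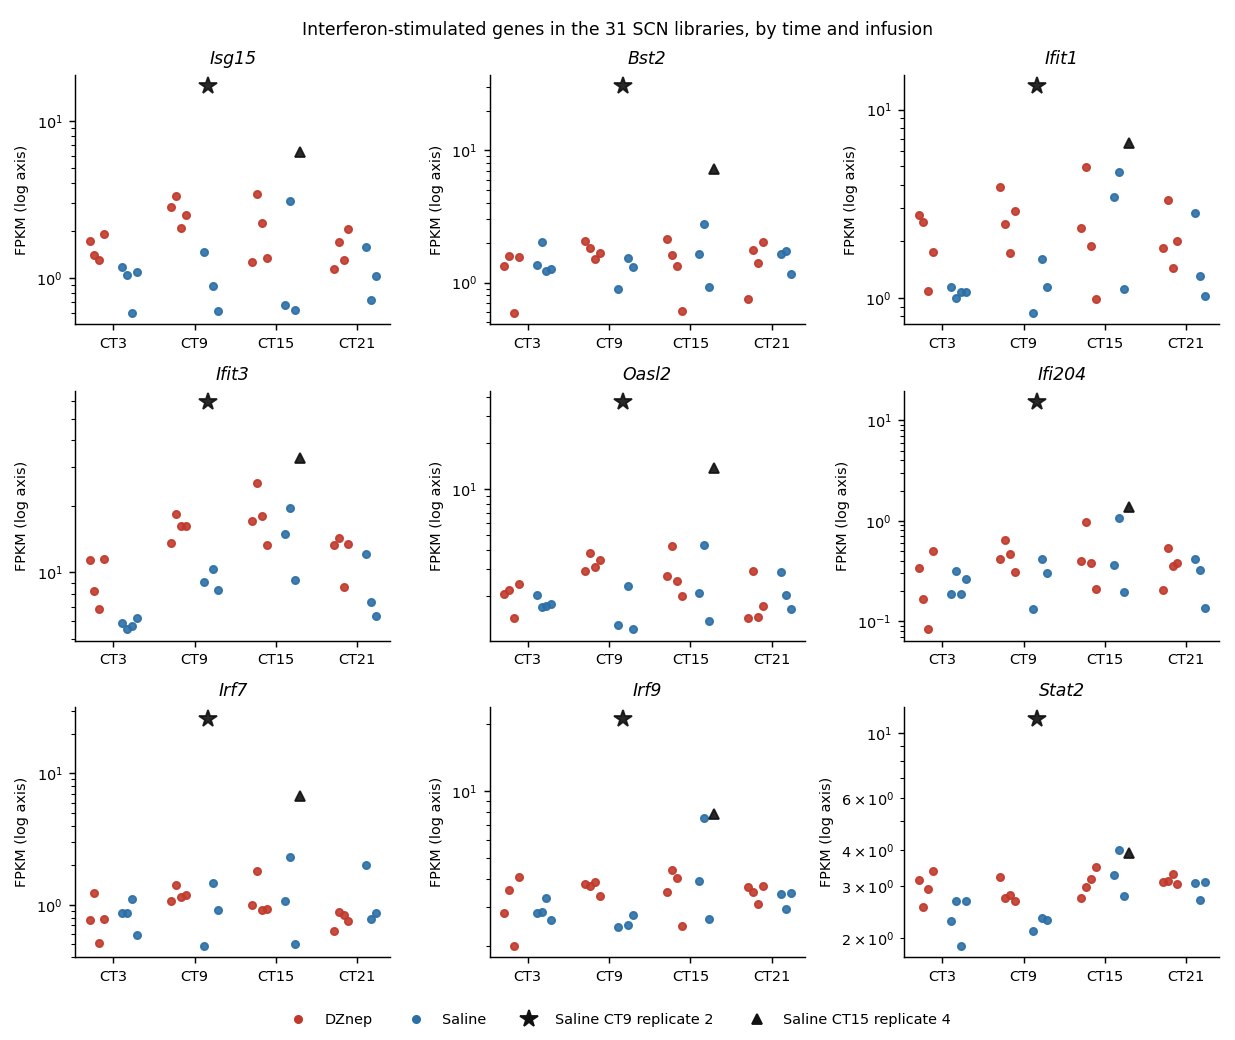
FPKM (y axis, log scale) of the 9 genes in 31 SCN libraries at 4 circadian times (x axis), DZnep in red to the left and saline in blue to the right; the star marks saline CT9 replicate 2 and the triangle saline CT15 replicate 4. The star is the highest point in all 9 panels and the triangle second in 8.

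With all 31 libraries, Ifit3 had a lowest value of 6.81, a median of 13.5 and a highest value of 25.4 FPKM in DZnep mice, and a lowest value of 5.51, a median of 9.04 and a highest value of 59.4 FPKM in saline mice. Isg15 had a lowest value of 1.15, a median of 1.81 and a highest value of 3.42 FPKM in DZnep mice, and a lowest value of 0.599, a median of 1.04 and a highest value of 16.7 FPKM in saline mice. For both, the DZnep median was the higher, the saline highest value came from CT9 replicate 2, and the groups overlapped. The log2 differences were 0.29 for Ifit3 (95% interval -0.11 to 0.70) and 0.18 for Isg15 (95% interval -0.32 to 0.67), with limma adjusted p-values of 0.289 and 0.629. For the other 7 genes the difference lay between -0.41 (Irf7) and 0.08 (Ifit1), and 0 of 9 passed at an unadjusted p under 0.05 (limma). Of all genes, 35.2% were called in this comparison, and ranges were apart for 0 of the 9 against 0.158% of genes. The median of the 9 was -0.16, against -0.005 for all genes. Ifi204 passed the filter through saline alone (0 of 16 DZnep and 3 of 15 saline libraries at 1 FPKM or more). It thus adds nothing to these counts or to the later ones over 31 libraries.

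Without saline CT9 replicate 2, Ifi204 fell below the filter and 8 genes were tested. Ifit3 was then called higher with DZnep, at a log2 difference of 0.46 (SE 0.13, limma adjusted p = 0.00585), the 1 call among the 8 (38.1% of all genes, 18.3% higher). Isg15 stood at 0.38 (95% interval 0.08 to 0.69, limma adjusted p = 0.0553). Without saline CT15 replicate 4 as well, a choice made after the values were seen, Ifit3 (0.53, limma adjusted p = 0.000492) and Isg15 (0.49, limma adjusted p = 0.00254) were both called (37.3% of all genes, 18% higher). Leaving out libraries high in these same genes from saline alone raises the difference and narrows the spread by itself, so these calls are no independent support. The other 6 genes were not called in either setting, and their intervals without both libraries reached no further than -0.25 (Irf7) and 0.62 (Ifit1).

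At single times the individual values of Ifit3 were as follows. At CT3 the DZnep libraries held 11.4, 8.23, 6.81 and 11.5 FPKM and the saline libraries 5.87, 5.51, 5.71 and 6.23 FPKM. At CT9 the DZnep libraries held 13.7, 18.5, 16.3 and 16.2 FPKM and the saline libraries 9.04, 59.4, 10.4 and 8.30 FPKM. The groups were thus apart at CT3, and apart at CT9 but for saline replicate 2. No share of all genes is given for ranges at single times, and 4 libraries per group separate easily. At CT15 the DZnep libraries held 17.1, 25.4, 18.1 and 13.3 FPKM and the saline libraries 15.0, 19.6, 9.23 and 33.0 FPKM. At CT21 the DZnep libraries held 13.4, 14.3, 8.56 and 13.4 FPKM and the saline libraries 12.1, 7.35 and 6.34 FPKM. The groups overlapped at both of these times. With all libraries 0 of the 9 were called at any time, and 0 at an unadjusted p under 0.05 (limma), when 12.9%, 14%, 8.9% and 4.26% of all genes were called at CT3, CT9, CT15 and CT21. Without both high saline libraries, Ifit3 was called at CT3 (0.61, limma adjusted p = 0.0477, 16% of all genes called, 6.86% higher). At CT9 Isg15 (0.92, limma adjusted p = 0.0139), Oasl2 (0.76, adjusted p = 0.0202) and Ifit3 (0.76, adjusted p = 0.0242) were called (14% of all genes called, 6.36% higher). At CT15 (9.31%) and CT21 (5.87%) 0 of 8 were called, with 0 at an unadjusted p under 0.05 (limma). Libraries high in these genes were left out of saline alone, which favours such calls. Without saline CT9 replicate 2 alone, 0 of 8 were called at any time, while 2, 5, 2 and 0 had an unadjusted p under 0.05 at CT3, CT9, CT15 and CT21 (limma; 16.3%, 14.2%, 11.9% and 6.09% of all genes called). Variation of the DZnep effect among times was called for 0 of the 9 (0.601% of all genes; 0 at an unadjusted p under 0.05, limma), for 0 of 8 without saline CT9 replicate 2 (0.731%; 2 unadjusted) and for 0 of 8 without both libraries (0.596%; 2 unadjusted).

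Oasl2 at CT9 held 2.91, 3.79, 3.10 and 3.43 FPKM in DZnep mice and 1.28, 37.2, 2.30 and 1.20 FPKM in saline mice. Isg15 at CT9 held 2.83, 3.32, 2.07 and 2.54 FPKM in DZnep mice and 1.46, 16.7, 0.895 and 0.617 FPKM in saline mice. In both, the DZnep values lay above 3 of the saline values and below the fourth. Stat2 was the steadiest of the 9, with 3.03 ± 0.274 FPKM in DZnep mice (SD, n = 16) and 2.80 ± 0.629 FPKM in saline mice without CT9 replicate 2 (n = 14).

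Change over the 4 times was called for 0 of the 9 in DZnep mice (8.21% of all genes; 0 at an unadjusted p under 0.05, limma F test) and for 0 in saline mice (14.3%), where 1 passed at an unadjusted p under 0.05, Ifit3 (limma F test, adjusted p = 0.0512). Without saline CT9 replicate 2, the DZnep time course was called for 0 of 8 (11.3%; 1 at an unadjusted p under 0.05, limma F test), and the saline time course for Ifit3 (limma F test, adjusted p = 0.00255), Stat2 (adjusted p = 0.00657) and Irf9 (adjusted p = 0.0432), against 15.8% of all genes. Ifit3 was also called without saline CT9 replicate 1, 3 or 4, CT15 replicate 3 or CT21 replicate 1 (limma adjusted p between 0.0291 and 0.0471). Without both high libraries, Ifit3 was called over time in DZnep mice (0.0369; 11% of all genes) and Ifit3 and Stat2 in saline mice (0.0124 and 0.0223; 13.4%). Ifit3 at CT15 in saline mice averaged 14.6 ± 5.18 FPKM without replicate 4 (SD, n = 3), above all saline values at CT3.

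**Figure D4:**
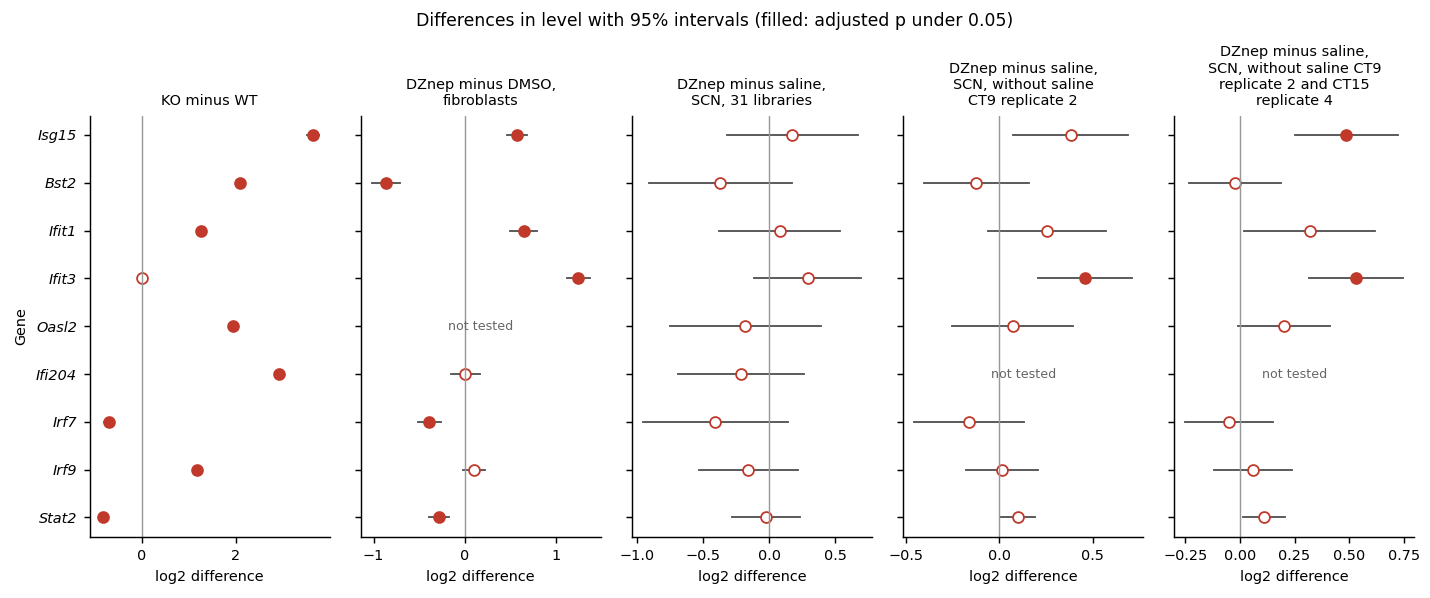
Log2 difference in level (x axis, each panel with its own scale) of the 9 genes (y axis) in KO against WT, DZnep against DMSO fibroblasts, and DZnep against saline SCN with 31, 30 and 29 libraries; points are limma estimates, lines 95% intervals, and filled points have an adjusted p under 0.05. In the SCN the intervals narrow when saline CT9 replicate 2 is left out, and Ifit3, then Isg15, become called. The libraries left out are high in these genes and from saline alone, which favours such calls.

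The order of the genes by level differed between groups, read within 1 table at a time and in TPM after every library was brought to the same sum. In KO cells Bst2 led (78.3 ± 6.27 TPM), then came Isg15, Ifi204, Irf9, Stat2, Ifit1, Oasl2, Ifit3 and Irf7 (0.689 ± 0.155), and among neighbours Ifi204 and Irf9 lay within 1 SD of each other's spread, as did Oasl2 and Ifit3. In WT cells Stat2 led (22.6 ± 6.97 TPM), then Bst2, Irf9, Ifit3, Ifi204, Isg15, Irf7, Ifit1 and Oasl2 (0.260 ± 0.103), and those from Ifit3 to Ifit1 overlapped with their neighbours, as did Stat2 and Bst2. In the SCN of DZnep mice Ifit3 led (51.9 ± 17.2 TPM) and Ifi204 was last (1.45 ± 0.786).

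The other genes of the pathway were read from lists chosen with earlier results known. None of 12 interferon genes passed the filter in any experiment, and the highest value in the fibroblasts was 1.01 TPM (Ifnz, in a KO library). Of 47 further interferon-stimulated genes tested in KO against WT, 26 were higher and 17 lower, with a median of 0.15, where 42.6% of all genes were higher and 47% lower. The immunoproteasome subunits Psmb8 (5.58) and Psmb9 (3.13) and Ifi27l2a (2.62) had the largest log2 increases, and the membrane restriction factors Ifitm1 (-5.81) and Ifitm3 (-1.85) and the Schlafen gene Slfn2 (-1.88) the largest decreases. Psmb8 averaged 66.7 ± 4.17 TPM in KO and 0.302 ± 0.189 TPM in WT (SD, n = 18). Among negative regulators 5 were higher and 5 lower of 10, led by Nlrc5 (3.01) and the Isg15-removing protease gene Usp18 (1.49) and by the cytokine-signal suppressor gene Socs3 (-1.98). Of the relatives of Ifi204, 3 of 3 tested were higher. Ifi202b, a gene known to differ in level among mouse strains, stood at 36.2 ± 2.17 TPM in KO and 0.153 ± 0.0708 TPM in WT (SD, n = 18). It was listed at 0 in all SCN libraries, which come from C57BL/6 mice. Whether KO and WT cells differ in genetic background was not tested.

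Among receptor and Jak-Stat genes 2 of 10 were higher in KO, led by the kinase gene Jak1 (0.87), and 6 lower, led by Stat3 (-0.62). Of 6 regulatory factors and their partners 3 were higher, led by Irf5 (1.66), and 3 lower, led by Irf3 (-0.68). Of 21 nucleic acid sensors and adaptors 11 were higher, led by the STING gene Tmem173 (1.20), and 8 lower, led by the kinase gene Ikbke (-1.03). Of the genes tested, 6 of the 47 further interferon-stimulated genes, 4 of the 10 negative regulators and 2 of the 3 relatives of Ifi204 did not pass the filter in both genotypes on their own. All genes named had limma adjusted p-values under 0.05, in a comparison where most genes did.

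In DZnep against DMSO fibroblasts, 20 of 41 further interferon-stimulated genes were higher and 12 lower, with a median of 0.17, where 33.1% of all genes were higher and 32.7% lower; 5 of the 41 did not pass the filter in both treatments on their own. The immunity-related GTPase genes Irgm1 (1.958) and Tgtp1 (1.67) and the chemokine gene Cxcl10 (1.34) led the increases, and Ifitm1 (-2.98), Ccl5 (-1.67) and Ifitm2 (-1.61) the decreases. Irgm1 averaged 66.5 ± 1.52 FPKM with DZnep and 15.8 ± 0.963 FPKM with DMSO (SD, n = 6). Of 10 receptor and Jak-Stat genes 2 were higher and 4 lower, the decreases led by Jak2 (-0.65). Ifitm1 was thus strongly lower in both fibroblast experiments, whereas Irgm1 averaged 21.0 ± 2.35 TPM in KO and 37.2 ± 1.56 TPM in WT.

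In the SCN the further interferon-stimulated genes also turned on saline CT9 replicate 2. Over all 31 libraries 0 of 46 were higher with DZnep and 2 lower, with a median of -0.15, where 35.2% of all genes were called in either direction; 8 of the 46 did not pass the filter in both treatments on their own. Without that library 7 of 44 were higher and 3 lower, with a median of 0.015 (38.1% of all genes called, 18.3% higher). The share called higher thus does not set them apart. Leaving out a saline library high in these same genes also favours such calls, so they are no independent support. Those with the largest increases were then Ifit3b, a near copy of Ifit3 (0.50, limma adjusted p = 0.00083), Nmi (0.29, adjusted p = 0.00017) and Tgtp1 (0.28, adjusted p = 0.027). Tgtp1 was low, with a median of 0.603 FPKM outside saline CT9 replicate 2. The antiviral kinase gene Eif2ak2 (-0.35 with all libraries, -0.25 without, limma adjusted p = 0.018 and 0.00081) and the RNA helicase gene Mov10 (-0.26 and -0.19, adjusted p = 0.0090 and 0.00043) were lower in both settings.

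How the 9 genes varied together within groups was described by Pearson correlations of deviations from group means, with no test. In the SCN the median over the 36 pairs of genes was 0.919 over 31 libraries, 0.735 over 30 without saline CT9 replicate 2 (28 pairs, 8 genes), and 0.647 over 29 without saline CT15 replicate 4 too. In the knockout experiment it was 0.043 over 36 libraries and in the fibroblast drug experiment 0.069 over 12. The SCN value rests in part on the high libraries: without saline CT9 replicate 2 the pairs ranged down to 0.26 and without both down to 0.18. Stat2 went least with the rest, with an r to the mean of the other genes of 0.88 over 31 libraries, 0.37 over 30 and 0.30 over 29. These points share a library's scaling, and in the SCN each value may pool several numbers. Ifi204 entered the 36 SCN pairs by passing the filter through saline alone.

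The genes most like their mean in the SCN were Gbp3 (r = 0.98), Gbp2, Usp18, Gbp10 and Zbp1 over 31 libraries, and Gbp3 (0.89), Gbp10, Rtp4, Ifitm3 and Lgals9 over 30. Without both high saline libraries they were Sh3pxd2b (0.85), Ctsc, Rtp4, Serpina3n and Ifitm3. In the knockout experiment the most alike were Gm166 (0.75), Mylip, Ssh3, Rad51b and Cdc37l1 over 36 libraries, and in the fibroblast drug experiment Id4 (0.93), Asap3, Ccdc159, Arhgef4 and Arhgef1 over 12. Of these, the guanylate-binding protein genes Gbp2, Gbp3 and Gbp10, Usp18, Zbp1, Rtp4 and Ifitm3 are themselves known as interferon-stimulated, and all 7 come from the SCN.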

How the data were processed

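RNA was sequenced from 79 mouse libraries. The fibroblast libraries were made from TRIzol extracts with a TruSeq kit and the SCN libraries from column extracts with a SMARTer pico total RNA kit, per the labels' protocols. Per the submitters' processing notes, the tools were Cufflinks 2.2.1, TopHat2 2.1.1, Trimmomatic 0.36 and bcl2fastq 2.18.0.12, with the build mm10. The role of each tool, the annotation and the counting strand were not given in the sources used here. The deposited KO and WT tables hold TPM, inferred from their sums, and the other deposited tables hold values read as FPKM, a unit inferred from the tools named. Neither unit keeps read depth, so no counting interval is given.

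Each experiment was analysed apart. Names on more than 1 row were averaged (280, none of the 9 genes), values were rescaled by median ratios within the experiment, and genes with 1 or more in at least 3 libraries were kept. Then log2(value + 1) was fitted with limma 3.58.1 in R 4.3.3 (trend, group means over arm and time), with Benjamini-Hochberg adjustment over all genes and calls at an adjusted p under 0.05. Intervals are 1.96 SE either way. Levels are printed as deposited. For change among times, the value beside an F test is the largest difference between time means, or between times in the arm difference. The fits were tested on simulated data.

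The members and lists were chosen with earlier results of these data known. Leaving out high-Malat1 libraries, the CT20 libraries of KO and WT, or both high saline libraries, and the pathway lists without those saline libraries, were alternatives chosen after seeing the data. The text names all 9 genes in every comparison, up to 3 called genes per direction and pathway list by size of change, and the 5 genes most like the mean of the 9 (Pearson r of deviations from group means, genes with a mean of 1 or more). Some results are not reported here. Gene positions come from GENCODE vM21 on GRCm38 and promoters from RefSeq. Same-numbered replicates gave no clear pairing of the samples (mean correlation of their deviations 0.012, 0.015 and -0.003 in the knockout, fibroblast drug and SCN experiments). Replicates within a group correlated at 0.925 or more.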

Additional observations from a re-analysis of the deposited data

Results flagged for a closer look

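In the SCN, groups of 4 libraries were examined for a library far from the other 3, and 12 of 63 combinations of gene and group held one. Chance flags about 1 in 20 groups. Of the 12, 9 are saline CT9 replicate 2, a library singled out with earlier results known. The 9 genes vary together in the SCN, so these are 1 library and not 9 separate signs. It stood far above the other 3 saline libraries of CT9 for every gene: Ifit1 at 13.3, Ifit3 at 59.4, Isg15 at 16.7, Bst2 at 30.8, Ifi204 at 15.2, Irf7 at 26.2, Irf9 at 21.1, Stat2 at 11.2 and Oasl2 at 37.2 FPKM. The other 3 are single genes. Bst2 was high in saline CT3 replicate 2 (2.04 FPKM), Irf7 was high in DZnep CT15 replicate 2 (1.80 FPKM), and Ifit3 was low in DZnep CT21 replicate 3 (8.56 FPKM).

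The difference between KO and WT varied among the 6 times for 6 genes by the test of that variation (limma F test, adjusted p under 0.05). The gap between the times of largest and smallest difference, on the log2 scale, was 1.00 for Irf7, 0.92 for Bst2, 0.78 for Stat2, 0.66 for Ifit3, 0.65 for Ifi204 and 0.34 for Oasl2. Of these, Irf7 and Oasl2 passed the filter through the genotype where they were high. The difference between DZnep and DMSO fibroblasts was larger at CT24 than at CT12 for Ifit3, by 0.63 on the log2 scale.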

How the results depend on the processing

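Depth is unknown, so what it limits could not be given. Under alternatives other than leaving out a replicate, 1004 of 1058 results on single genes kept their direction and their side of the threshold, 16 lost and 24 gained a call, and 14 reversed. Among counts of the 9 genes, a pseudocount of 0.1 gave 0 calls for the DZnep effect at CT24 against CT12, 2 lower genes at CT12 and 1 for the saline time course. A filter on a mean of 5 left 2 of the 9 in the fibroblast drug experiment, so fewer could be called: 0 higher over both times, at CT12, at CT24 and for the difference, and 2 with DZnep and 2 with DMSO between times. It gave 1 lower in KO, 4 changing in WT, 2 in KO and 1 in saline. With 24 h sine and cosine terms 5 changed in WT, 1 in KO, 1 differed between genotypes and 1 changed in saline. Values as deposited, quantile normalization and the replicate block each gave 1 in saline. Without both high saline libraries, 2 were higher over all times, 1 at CT3 and 3 at CT9, and 1 changed in DZnep mice and 2 in saline mice. The cause was not tested.

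Reversals were few outside the SCN. Isg15 at CT24 against CT12 in DMSO stood at -0.035 as deposited and at -0.082 with quantile normalization, Isg15 at CT15 in the SCN at 0.10 with a pseudocount of 0.1, and Irf7 at CT3 at 0.0078 with quantile normalization. Without both high saline libraries the SCN difference was 0.059 for Irf9, 0.20 for Oasl2 and 0.11 for Stat2 over all times. It was 0.31 for Bst2, 0.20 for Irf7, 0.40 for Irf9, 0.76 for Oasl2 and 0.26 for Stat2 at CT9, and 0.38 for Isg15 and 0.14 for Oasl2 at CT15.

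Leaving out single replicates kept 3989 of 4080 results on single genes. The count of genes ranged from 0 to 2 for the DZnep effect at CT24 against CT12, from 1 to 2 for lower genes at CT12, from 0 to 1 for higher genes in the SCN and from 0 to 3 for the saline time course. Of differences that changed sign, Ifit3 in KO ranged from -0.010 to 0.028, and with DZnep in fibroblasts Ifi204 ranged from -0.032 to 0.059 and Irf9 at CT24 from -0.016 to 0.11. At CT24 against CT12, Ifi204 ranged from -0.13 to 0.025 with DZnep and Isg15 from -0.066 to 0.080 with DMSO. In the SCN over all times Ifit1 ranged from -0.0070 to 0.26 (0.32 without both high saline libraries), Irf9 from -0.23 to 0.015, Oasl2 from -0.28 to 0.071 and Stat2 from -0.081 to 0.10. At CT3 Bst2 ranged from -0.22 to 0.020, Ifi204 from -0.055 to 0.11, Irf7 from -0.13 to 0.042 and Irf9 from -0.063 to 0.19. At CT9 Bst2 ranged from -1.10 to 0.31, Ifit1 from -0.28 to 0.76, Ifit3 from -0.18 to 0.76, Irf7 from -1.25 to 0.20, Irf9 from -0.56 to 0.41, Isg15 from -0.27 to 0.92, Oasl2 from -0.65 to 0.76 and Stat2 from -0.46 to 0.26. At CT15 Ifit3 ranged from -0.24 to 0.30, Isg15 from -0.32 to 0.38 and Oasl2 from -0.71 to 0.14. At CT21 Bst2 ranged from -0.19 to 0.075, Ifi204 from -0.026 to 0.14, Irf9 from -0.017 to 0.072 and Stat2 from -0.012 to 0.058.

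The replicate numbers gave no clear pairing of the samples: 18 of 36, 5 of 12 and 7 of 31 libraries correlated best with their own number in the knockout, fibroblast drug and SCN experiments. In the knockout experiment some structure is possible. Its high-Malat1 libraries of WT CT16, CT24 and CT32 and of KO CT24 and CT32 were all replicate 2, that of KO CT16 replicate 3. With the replicate block, the saline time course was called for Ifit3 (adjusted p = 0.0458, limma) and the KO time difference for Irf9 (adjusted p = 0.0425, limma), and no other call of the 9 genes changed.

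Counts over all genes moved by more than 1.5 times in places. The DZnep effect at CT24 against CT12 was larger for 526 genes without high-Malat1 libraries (349 with all) and smaller for 182 with a filter on a mean of 5 (317 otherwise). As deposited, SCN genes higher with DZnep numbered 285, 485, 347 and 120 at CT3, CT9, CT15 and CT21 (748, 861, 563 and 263 rescaled), and lower ones 486, 484, 177 and 58 (972, 1001, 622 and 304). Lower SCN genes over all times numbered 1586 as deposited and 1615 with a mean of 5 (2433), and variation among times 24 as deposited and 41 with sine and cosine terms (80). With those terms 1345 genes changed in KO (5813), 4970 in WT (9454) and 1970 differed between genotypes (7103).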
